A study of Mus musculus with 28 samples.

Results

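Nuclear genes for the subunits of the oxidative phosphorylation complexes were followed through the change of CTLL2 cells to fresh medium, with and without melanoma exosomes. Members were the protein-coding genes of the deposited table whose GENCODE M21 symbol begins with Ndufa, Ndufb, Ndufc, Ndufs, Ndufv, Uqcr, Cox4i, Cox5, Cox6, Cox7, Cox8 or Atp5, or is Sdha, Sdhb, Sdhc, Sdhd or Cyc1. Assembly factors with names beginning Ndufaf and pseudogene names were left out. This gave 85 of the 30608 genes in the table. The rule reads gene names and no expression value. Complex I holds 36 of them, complex II 4, complex III 9, complex IV 17 and complex V, the ATP synthase, 16. Ndufa4 and Ndufa4l2 are given as a pair of their own, since the Ndufa4 protein was first assigned to complex I and is now counted with complex IV. The remaining member, Atp5s, fits the naming rule but is not counted here as a structural subunit.

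CTLL2 is an established mouse line of cytotoxic T cells that needs interleukin-2 to grow, and the labels give its strain as C57BL/6. All cells had first been kept for 24 h in complete medium. Untreated cells were taken at 0 h (4 libraries) and at 0.5, 2, 4 and 8 h after fresh complete medium was added (3 libraries each). The treated groups received fresh complete medium with 0.2 mg/ml of exosomes, vesicles released by the B16F0 mouse melanoma line, in PBS, and were taken at 0.5, 2, 4 and 8 h (3 libraries each). Whether untreated cells received PBS alone is not given in the sources used here. The labels put 9 of the 28 libraries, 1 from each group, in batch 1 and the other 19 in batch 2. The design text calls the replicates biological, and since all come from 1 line the p-values measure the spread between cultures of that line.

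Electrons from NADH enter the respiratory chain at complex I and those from succinate at complex II, which is also an enzyme of the citric acid cycle. Ubiquinone carries them to complex III, cytochrome c carries them to complex IV, and there they reduce oxygen, while complexes I, III and IV pump protons out of the mitochondrial matrix. ATP synthase lets the protons flow back through a ring of c subunits, which turns a stalk inside its catalytic F1 head. Most subunits come from nuclear genes and the rest from mitochondrial DNA. Activated and proliferating T cells are known to raise mitochondrial mass and respiration together with glycolysis.

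Many nuclear subunit genes are known targets of the transcription factors NRF1, GABP (a factor of the ETS family, also called NRF2) and YY1. Promoter sequences were matched by symbol for 67 of the 85 members in a RefSeq table on the build GRCm38.p6. Each window runs from 250 bases before to 50 bases after the start site, and some members have several. The NRF1 word, which reads GCGCA, any base and GCGC, was searched on both strands like the others. It was present in the windows of 17 members (25.4%), against 5.19% of all 27025 genes in the table and 11.7% of the 9695 genes that were also tested for expression. The ETS word CCGGAAG was found for 16 members (23.9%, against 9.93% and 21.1%) and the YY1 word AAGATGGCG for 7 members (10.4%, against 1.64% and 3.72%). At least 1 of the 3 words was present for 34 members (50.7%), against 32.3% of the genes tested. A match is a description of the letters and does not show that a factor binds there.

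The following 250 bases before the start site are shown because they hold these words in genes from all 5 complexes, and capitals mark the matches. They come from the minus strand of chr13:74350241-74350490 (Sdha), chr5:115348959-115349208 (Cox6a1), chr13:73328483-73328732 (Ndufs6), chr10:80406822-80407071 (Uqcr11) and chr16:84834977-84835226 (Atp5j).
Sdha: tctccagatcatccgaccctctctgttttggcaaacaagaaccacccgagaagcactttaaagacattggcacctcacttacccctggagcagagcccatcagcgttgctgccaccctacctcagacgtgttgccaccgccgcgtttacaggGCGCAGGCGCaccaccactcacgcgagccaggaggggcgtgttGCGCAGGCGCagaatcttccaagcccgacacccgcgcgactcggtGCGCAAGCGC
Cox6a1: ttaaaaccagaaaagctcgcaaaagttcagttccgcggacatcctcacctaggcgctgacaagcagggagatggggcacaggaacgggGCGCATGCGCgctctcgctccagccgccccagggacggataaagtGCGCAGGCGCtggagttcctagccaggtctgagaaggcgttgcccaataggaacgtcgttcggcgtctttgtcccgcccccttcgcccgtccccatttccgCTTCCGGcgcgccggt
Ndufs6: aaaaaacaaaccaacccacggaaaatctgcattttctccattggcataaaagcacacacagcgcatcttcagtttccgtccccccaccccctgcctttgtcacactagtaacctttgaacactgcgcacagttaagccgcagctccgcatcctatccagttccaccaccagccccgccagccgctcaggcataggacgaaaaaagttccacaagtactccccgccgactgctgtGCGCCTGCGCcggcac
Uqcr11: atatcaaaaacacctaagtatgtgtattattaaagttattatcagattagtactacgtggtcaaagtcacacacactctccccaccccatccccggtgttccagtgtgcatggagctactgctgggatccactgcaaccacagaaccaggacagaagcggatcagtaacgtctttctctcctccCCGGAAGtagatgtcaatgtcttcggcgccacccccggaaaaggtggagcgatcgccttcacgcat
Atp5j: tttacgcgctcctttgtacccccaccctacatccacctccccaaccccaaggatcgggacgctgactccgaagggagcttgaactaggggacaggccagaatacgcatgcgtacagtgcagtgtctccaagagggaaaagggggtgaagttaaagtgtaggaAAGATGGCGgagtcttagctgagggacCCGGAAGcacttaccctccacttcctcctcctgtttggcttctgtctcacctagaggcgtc

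Sdha, for the catalytic subunit of complex II, had 3 NRF1 words, at 98, 55 and 10 bases before the start site. Cox6a1, for a nuclear subunit of complex IV, had 2 NRF1 words and an ETS word on the other strand, where it reads CTTCCGG. Atp5j, for a subunit of the ATP synthase stalk, had a YY1 word and an ETS word in the same stretch. The YY1 word of the other 6 members lies just after the start site, and its middle letters hold an ATG. These stretches of 24 bases are shown because their capitals line up while the letters before them differ. The letters after them are the same in Ndufs4 and Ndufs6.
Atp5j2: ccaggacttcAAGATGGCGtcact
Ndufa9: attgtgggagAAGATGGCGgccgc
Ndufc1: cctgcggaacAAGATGGCGccgtc
Ndufs4: tgcctacaggAAGATGGCGgcggt
Ndufs6: ggtcaccggcAAGATGGCGgcggt
Ndufs7: ggccgaggccAAGATGGCGgcgct

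They lie at chr5:145191505-145191528 (Atp5j2), chr6:126849102-126849125 (Ndufa9), chr3:51408920-51408943 (Ndufc1), chr13:114388046-114388069 (Ndufs4) and chr13:73328436-73328459 (Ndufs6) on the minus strand, and at chr10:80249463-80249486 (Ndufs7) on the plus strand.

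Depth ranged from 6072984 to 24085812 recovered reads per library, and a level of 3 reads corresponds to between 1.88 and 7.47 normalized counts. The share of genes listed at 0 was 27.8% to 39.9% in 26 libraries, while untreated 4 h replicate 1 had 15.7% and exosome 8 h replicate 3 had 22.0%. All 14 T cell identity genes, among them Cd3e, Cd8a and Gzmb, were above 3 reads in every library. Skeletal muscle transcripts stood out in 8 libraries, in which the muscle actin gene Acta1 was above 50 normalized counts. These are exosome 0.5 h replicates 1 and 3, untreated 2 h replicate 2, exosome 2 h replicate 2, exosome 4 h replicates 1 and 2, and untreated 8 h replicates 1 and 2. For most comparisons that rest on them, a median or count over the members is also given without them. Values by complex, by list and, with few exceptions, for single genes are given with them only. The 13 subunits encoded in mitochondrial DNA were not analysed here.

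Levels between genes were compared per kb of each gene's principal transcript, as the mean normalized count of the 28 libraries. The median was 1126 per kb over complex I, 2079 over complex II, 1807 over complex III, 1522 over complex IV and 3038 over complex V. Atp5b, for the catalytic beta subunit of the F1 head, was highest of all members at 13942 per kb. The next were Cox4i1, for a regulatory subunit of complex IV, at 8847 per kb, Cox6a1 at 8019 and Atp5g3, for the c subunit of the rotor ring, at 7900. Sdhd, for a membrane anchor, led complex II at 2237 per kb, and Uqcrh, for a small hinge protein, led complex III at 3773.

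In each set of isoform genes compared here, 1 of them held most of the transcript. Cox6a1 was at 8019 per kb and its heart and muscle isoform Cox6a2 at 16.2. Cox8a was at 6860 and the muscle isoform Cox8b at 3.04, Cox7a2 at 2113 and the muscle isoform Cox7a1 at 18.2. Cox7a2l, listed with Cox7a1 and Cox7a2, is not set against them here. It was at up to 1563 normalized counts at 0 h, on a principal transcript of 1.076 kb. Cox7b was at 2037 against 37.8 for Cox7b2, Cox6b1 at 3771 against 1.72 for the testis isoform Cox6b2, and Cox4i1 at 8847 against 0.317 for the lung and hypoxia isoform Cox4i2. Ndufa4 was at 1788 and its relative Ndufa4l2, a hypoxia-induced gene, at 0.531. Of the 3 genes for an identical mature c subunit, Atp5g3 was far above Atp5g1 (125 per kb, on a principal transcript of 4.715 kb) and Atp5g2 (102 per kb).

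Copies elsewhere in the genome limit some of these levels. For Atp5g2, 87.4% of the 50-base windows of its transcript also occur in transcripts of other genes, and the share was 68.5% for Atp5l, 53.0% for Cox7c, 50.5% for Atp5h, 43.2% for Uqcrb and 37.0% for Ndufb4. How reads that map to several places were counted is not given in the sources used here, so the levels of these genes are uncertain. Ndufb4, the lowest member of complex I at 32.0 per kb, and Uqcrb, the lowest of complex III at 648, are among them.

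**Figure D1:**
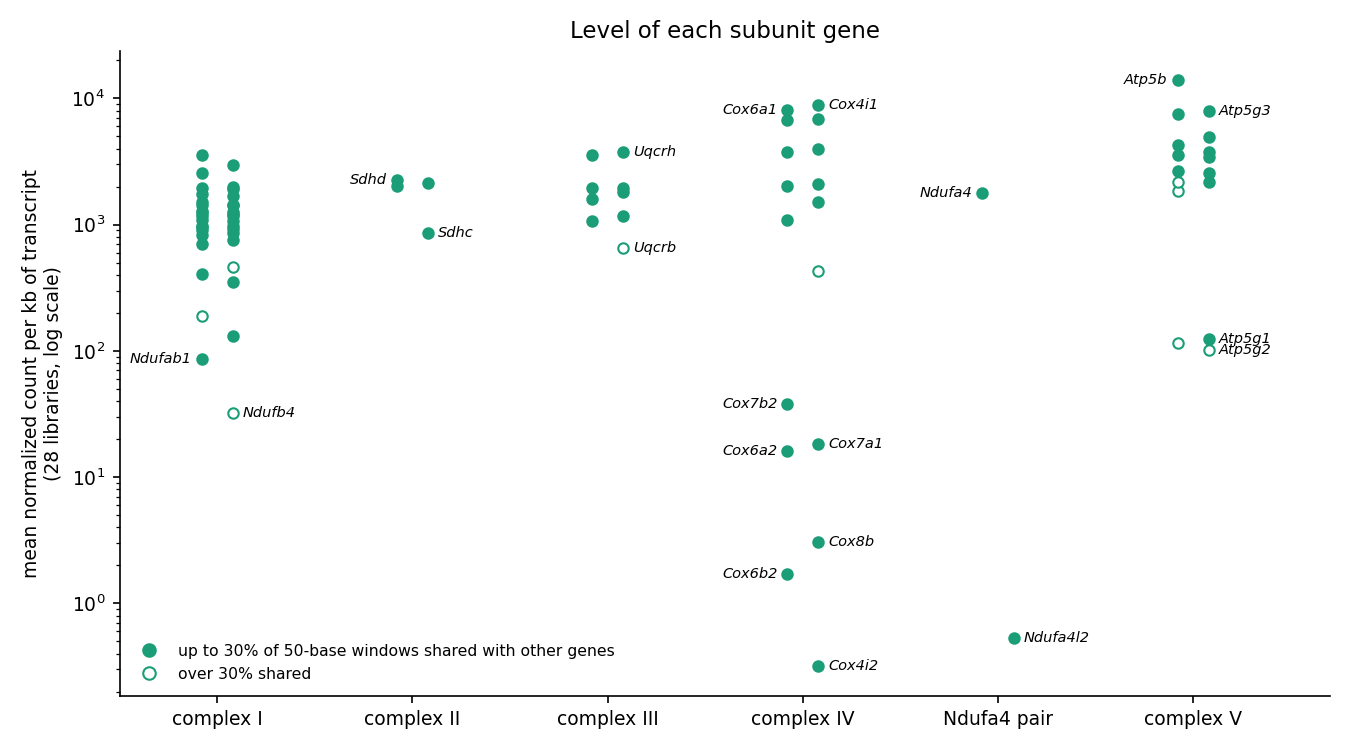
Mean normalized count per kb of principal transcript over 28 libraries (vertical axis, log scale) for the 84 subunit genes by complex, 1 point per gene, with open points for genes that share over 30% of their 50-base windows with other genes. Atp5b stands highest at 13942 per kb, and the muscle, testis and hypoxia isoforms Cox6a2, Cox8b, Cox6b2, Cox4i2 and Ndufa4l2 lie at 16.2 or below.

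Genes for subunits of all 5 complexes were higher in untreated cells 8 h after the medium change than at 0 h. Of the 81 members tested, 64 rose and 0 fell (limma, adjusted p below 0.05), while 31.7% of all 14828 genes tested were called and 15.9% were called higher. Of the members 76 were higher, against 48.8% of all genes, and their median log2 change was 0.43, against -0.01 for all genes tested. The members together made up 1.12 ± 0.102% (SD, n = 4) of all normalized counts at 0 h and 1.43 ± 0.117% (n = 3) at 8 h. For 59 members all 8 h libraries lay above all 0 h libraries, which was so for 13.0% of all genes tested.

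Both replicates 1 and 2 of untreated 8 h belong to the libraries with muscle transcripts, and replicate 3 does not. As a median over the members against the 0 h libraries of the same batch, replicate 1 stood 0.68 higher on the log2 scale, replicate 2 stood 0.48 higher and replicate 3 stood 0.23 higher. Acta1 was at 202, 206 and 3.57 normalized counts in these 3 libraries, and the 20 skeletal muscle markers summed to 3513, 3122 and 1129, against 1034 to 1108 at 0 h. All 20 of those markers were above 3 reads in replicates 1 and 2, 8 were in replicate 3 and 7 in each 0 h library. Without the 8 libraries that hold muscle transcripts, 8 h is left with replicate 3 alone, which the fit assumes to vary like the other groups. A count of calls there says little. In that fit the median of the members was 0.24, against 0.02 for all genes tested (edgeR and DESeq2 were not run on that subset). Leaving out replicate 1 alone gave 32 members called, against 15.9% of all genes, and leaving out replicate 2 alone gave 43, against 14.2%. With replicate 3 as the only 8 h library and all other groups complete, the median was again 0.24, against 0.02 for all genes tested. Among the genes named here, Cox4i1, Cox5a, Cox5b, Cox6a1, Cox7a2, Cox7a2l, Cox7b, Cox8a, Ndufa4, Uqcr11, Ndufa5 and Atp5mpl lost their call without replicate 1, and Sdhb, Cox4i1, Cox5b, Cox6a1, Cox7a2, Cox7b and Atp5g1 lost it without replicate 2. Genes of the T cell receptor complex differed in direction. Cd3e was at 2597, 2511 and 3502, below its 3594 to 3788 at 0 h. Cd3d was at 8720, 4491 and 3842, against 3046 to 4853, and Cd3g at 16748, 8895 and 7135, against 6368 to 9049. Both were above the whole 0 h range in replicate 1 only. In batch 2 alone the 0 h libraries were at 3046 to 3588 for Cd3d and 6368 to 7175 for Cd3g. Replicate 2 was above these for both genes and replicate 3 for Cd3d. The muscle isoforms of complex IV can be read beside Acta1 in all 28 libraries. Cox8b was above 0 in 7 of the 8 libraries with muscle transcripts, with at most 10.8 normalized counts (12 reads, exosome 4 h replicate 1), and in 1 of the other 20, with 2 reads. Cox6a2 had a median of 14.99 normalized counts in the 8 libraries (5.64 to 25.1) and of 8.93 in the other 20 (1.89 to 16.9). The part of the muscle transcripts in the result was not tested.

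Over all groups, the 8 libraries with muscle transcripts had member medians from 0.05 to 0.68 above 0 h, and 4 of them were over 0.3. Among the other 20 libraries the medians ran from -0.07 to 0.53 and 1 was over 0.3, untreated 2 h replicate 1, where Acta1 was at 2.65.

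**Figure D2:**
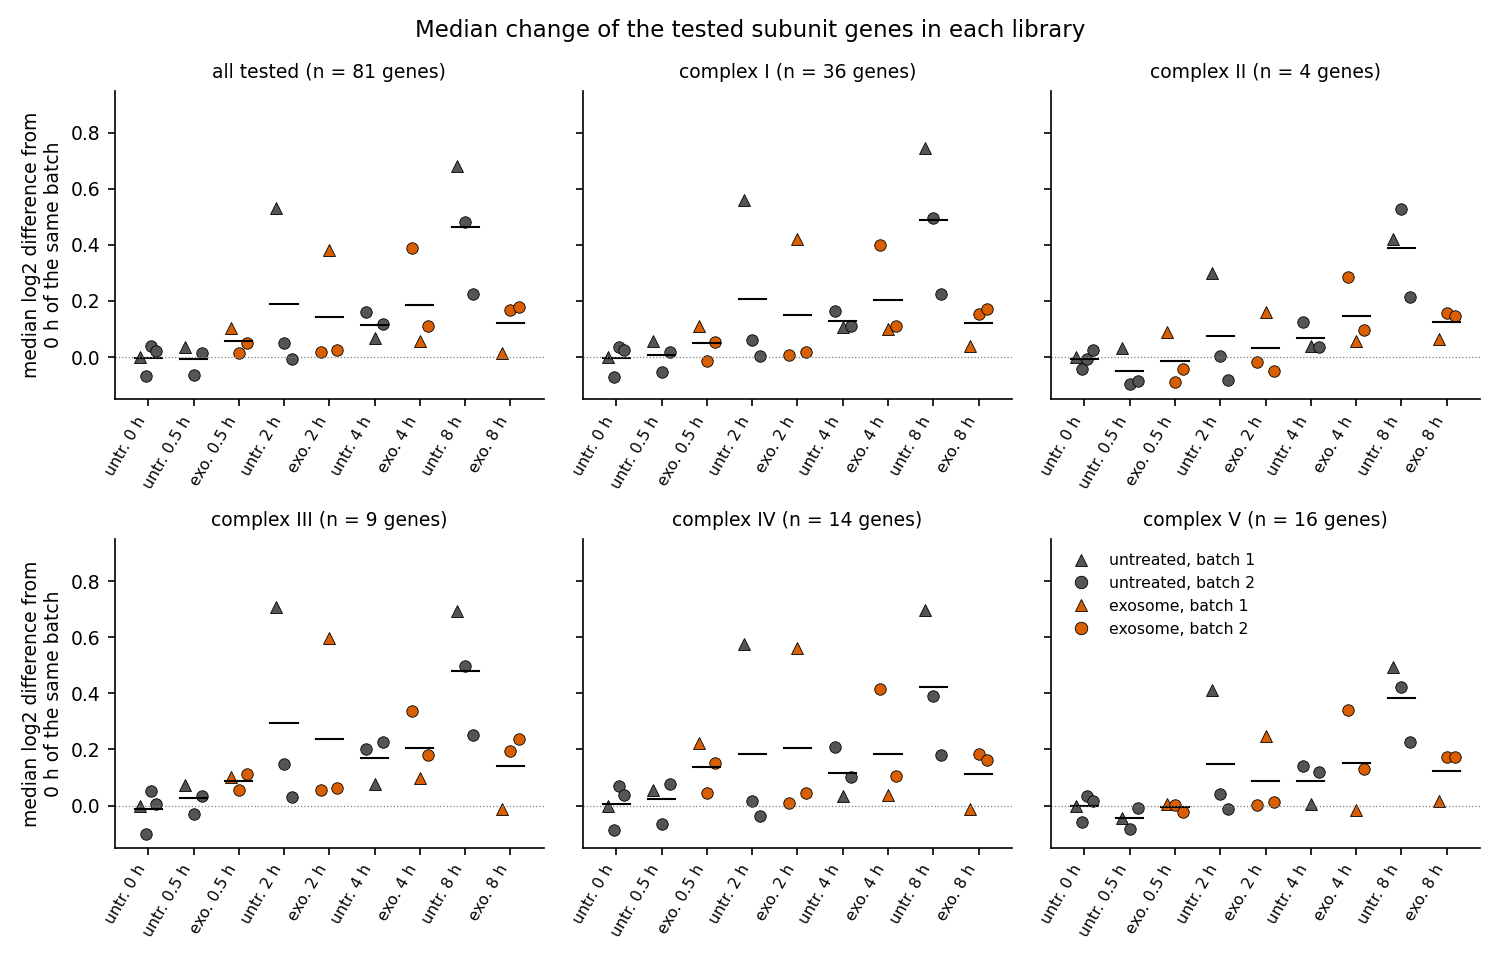
Median over genes of the log2 difference from the 0 h libraries of the same batch (vertical axes), 1 point per library, for all 81 tested members and for each complex, grey for untreated and orange for treated cells, batch 1 as triangles, batch 2 as circles and group means as bars. Untreated 8 h lies at 0.68, 0.48 and 0.23 for all members, while exosome 8 h lies between 0.01 and 0.18.

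In complex I, 30 of 36 genes rose in untreated cells by 8 h, with a median log2 change of 0.47. All 7 core subunits with nuclear genes, which carry the flavin, the iron-sulfur clusters and the ubiquinone site, were among them, at 0.27 to 0.53. Ndufv2, for an iron-sulfur subunit of the NADH-oxidizing arm, was at 1014, 1087, 1112 and 1054 normalized counts in the 0 h libraries and at 1649, 1641 and 1323 in the 8 h libraries. The 2 sets did not overlap, and replicate 3 was the lowest of the 8 h libraries. Its log2 change was 0.53 ± 0.12 (SE, limma adjusted p = 0.0039). Ndufs1, for the largest of the iron-sulfur subunits, rose by 0.27 and Ndufv1, which binds the flavin, by 0.31.

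Of the 29 accessory subunits of complex I, which surround the core and are needed for its assembly and stability, 23 rose, with a median of 0.48. Ndufs6, for an accessory subunit that binds zinc (ENSMUSG00000021606.7, chromosome 13 from 73319838 to 73328542 of GRCm38), had 361, 494, 539 and 509 normalized counts at 0 h. In untreated cells at 8 h it had 966, 853 and 603, and all 3 were above every 0 h library. The log2 change was 0.76 ± 0.18 (limma adjusted p = 0.0042). Ndufa1 on chromosome X, for a small membrane-arm subunit, was at 813, 681, 904 and 894 at 0 h and at 2073, 1588 and 1103 at 8 h (0.90 ± 0.21). Ndufb11, also X-linked and in the membrane arm, rose from 1450 ± 89.3 (SD, n = 4) to 2617 ± 711 (n = 3), and Ndufa5, in the matrix arm, from 642 ± 108 to 1089 ± 250. The 6 members of complex I that were not called were Ndufa10, Ndufa12, Ndufab1, Ndufb10, Ndufb4 and Ndufv3, between -0.10 and 0.29. Ndufab1 differs in kind from the rest, since it encodes the mitochondrial acyl carrier protein, which also serves lipoic acid synthesis.

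Complex II had 3 of its 4 genes called higher. Sdhc, for a membrane anchor, was at 2269.8, 2343, 2560.1 and 2406 normalized counts at 0 h and at 3752, 3653 and 2914 at 8 h, a log2 change of 0.51 ± 0.10 (limma adjusted p = 0.0017). Sdhd, the other anchor, changed by 0.33 and Sdhb, the iron-sulfur subunit, by 0.44. Sdha, for the flavoprotein that oxidizes succinate, was not called. It was at 4943, 7008, 6760.2 and 6949 at 0 h and at 4993, 7953 and 7619 at 8 h, and the batch 1 library was the lowest in both groups. Its change was 0.12 ± 0.06 (limma adjusted p = 0.107).

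All 9 genes of complex III rose, with a median of 0.50. Uqcrq, for a small subunit at the ubiquinone side of the complex (chromosome 11 from 53427922 to 53430831), had the largest change of all members. It was at 1211, 1117, 1272 and 1214 at 0 h and at 3676, 2271 and 1503 at 8 h. All 8 h libraries were above the 0 h ones, with replicate 1 highest. The log2 change was 0.93 ± 0.22 (limma adjusted p = 0.0040), 0.62 in batch 2 alone and 1.60 between the pair of batch 1 libraries. Uqcr11, another small subunit, changed by 0.78 ± 0.21 (adjusted p = 0.0081). The genes of the redox-active subunits rose too, Uqcrfs1 for the Rieske iron-sulfur protein by 0.30 and Cyc1 for cytochrome c1 by 0.45. Uqcrc1, for a core protein of the matrix side, was at 2525, 3105, 3152 and 2993 at 0 h and at 3510.4, 4042 and 3529.7 at 8 h, without overlap. Its change was 0.35 (limma adjusted p = 0.0016), 0.30 without replicate 1 (adjusted p = 0.0133) and 0.20 without the libraries that hold muscle transcripts (adjusted p = 0.253).

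In complex IV 9 of the 14 genes tested rose, with a median of 0.28. Cox4i1 and Cox5a, whose proteins are among the early partners of the catalytic core, rose by 0.21 and 0.20, and Cox5b, for a zinc-binding subunit, by 0.31. Cox7a2 (0.67), Cox7b (0.65), Cox6c (0.63) and Cox8a (0.60), for small membrane-spanning subunits, had the largest changes of the complex. The genes not called were Cox6b1, Cox7c and the low isoforms Cox6a2, Cox7a1 and Cox7b2. Cox6a2 was at 12.3 ± 5.37 at 0 h and 11.9 ± 5.19 at 8 h, and Cox7a1 at 6.55 ± 2.79 and 5.21 ± 2.73. Ndufa4, counted with this complex in current models, rose by 0.74 ± 0.20 (limma adjusted p = 0.0090), while Ndufa4l2 was at most 3.31 normalized counts in any of the 28 libraries and was not tested.

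Complex V had 12 of 16 genes called higher, with a median of 0.40. All 5 subunits of the F1 head and central stalk rose, from 0.25 for Atp5d to 0.57 for Atp5e, which both encode parts of the central stalk. Atp5b was at 22045, 27287, 27468 and 26576 normalized counts at 0 h and at 28620, 34623 and 31744 at 8 h. The 2 sets did not overlap, and the change was 0.32 (limma adjusted p = 0.0026). In the c ring Atp5g3 rose by 0.40 ± 0.07 and Atp5g1 by 0.41, while Atp5g2 was at -0.24 ± 0.15 and was the only member with all 8 h libraries below all 0 h libraries, which was so for 10.4% of all genes. Of the peripheral stalk, which holds the head still, 2 of 4 genes were called, and of the 4 other membrane subunits 3 were, with Atp5mpl at 0.69 ± 0.19.

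Among the 17 members not called, 6 share over 30% of their windows with other genes, against 3 of the 64 that rose. The difference between these counts was not tested.

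**Figure D3:**
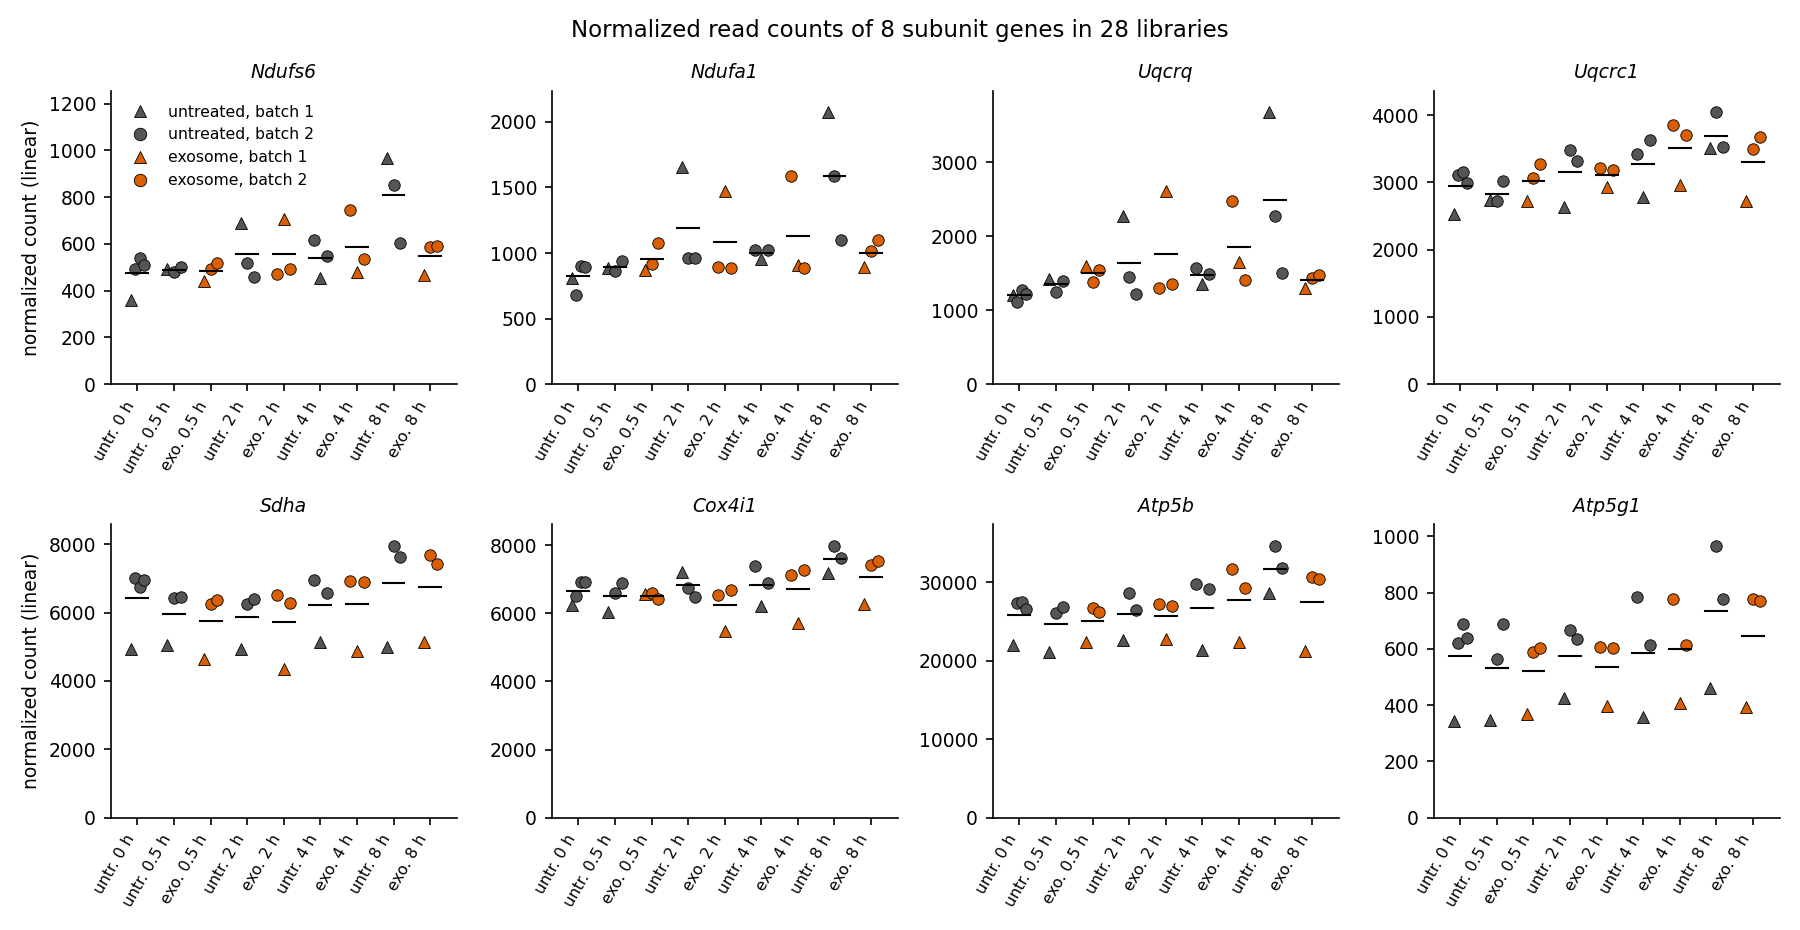
Normalized counts (vertical axes, linear from 0) of 8 members in each of the 28 libraries, by group, with grey for untreated and orange for exosome-treated, triangles for batch 1, circles for batch 2 and bars at group means. Ndufs6, Ndufa1 and Uqcrq are highest in untreated 8 h replicate 1, at 966, 2073 and 3676, while Sdha and Atp5g1 separate by batch, with batch 1 lower.

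The members moved further between the 1 pair of batch 1 libraries than within batch 2. Within batch 1, which has 1 library per group, the median difference between untreated 8 h and 0 h was 0.68. Within batch 2, 59 members were called, against 26.6% of all genes, and the median was 0.33. Without a batch term 37 members were called, against 12.4% of all genes. The difference in batch 1 was the larger for 69 of 81 members, and 70 were higher in both batches. In batch 1 all 81 values come from the same pair of libraries, so these counts do not measure a spread between cultures. The untreated 8 h libraries of batch 2 also differed from each other, as given above. Between batches over all groups 38 members were called, 30 lower and 8 higher in batch 1, against 57.6% of all genes tested, 28.5% lower and 29.2% higher. Atp5g1 was lower in batch 1 by 0.81 on the log2 scale, Cox6a1 by 0.60 and Sdha by 0.48, while Cox6c was higher by 0.33 and Uqcrq by 0.27 (limma adjusted p of 2.0e-12, 4.2e-08, 9.1e-13, 0.0124 and 0.0441). What set the batches apart beyond the label is not given in the sources used here.

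Short transcripts as a class moved in the same libraries. The 734 tested genes under 1 kb that are no members had median differences from 0 h of 0.62, 0.38 and 0.15 in untreated 8 h replicates 1, 2 and 3, while 10768 tested genes of 1 kb or more had a group mean of 0.00. Over the group that is 0.38 ± 0.24 (SD, n = 3) for the other short genes, 0.48 ± 0.25 for the 49 members under 1 kb and 0.41 ± 0.17 for the 32 members of 1 kb or more. In the fit, the members under 1 kb had a median change of 0.46 with 38 of 49 called, those of 1 to 2 kb had 0.44 with 21 of 24, and those of 2 kb or more had 0.30 with 5 of 8. These lengths are of the annotated principal transcript, which is 4.715 kb for Atp5g1, 4.371 kb for Ndufb2 and 3.479 kb for Ndufab1. Which transcript form the cells held was not examined, so a member classed as long may have been read from a shorter form. The part of transcript length in the result was not tested.

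**Figure D4:**
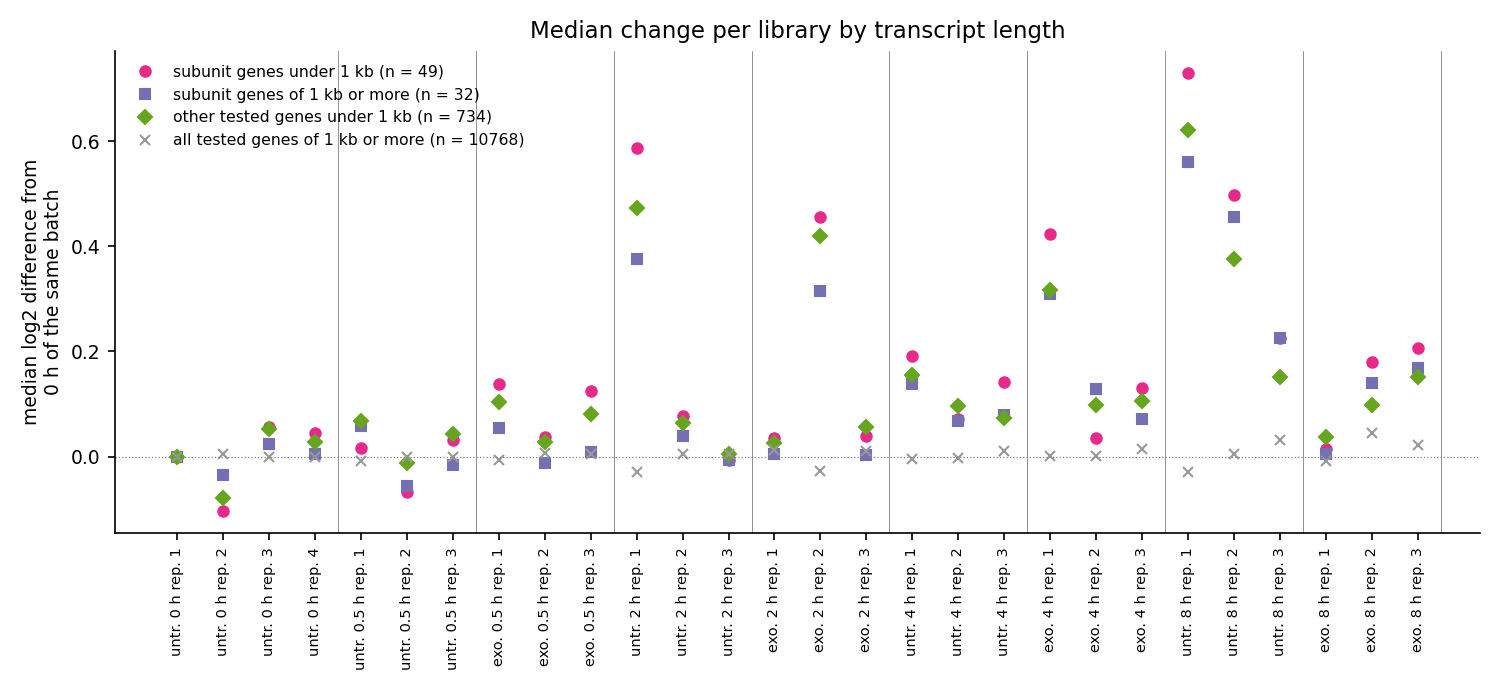
Median log2 difference from the 0 h libraries of the same batch (vertical axis) in each of the 28 libraries (horizontal axis, by group) for members under 1 kb (n = 49), members of 1 kb or more (n = 32), other tested genes under 1 kb (n = 734) and all tested genes of 1 kb or more (n = 10768). Members and other short genes are high in the same libraries, untreated 2 h replicate 1, exosome 2 h replicate 2, exosome 4 h replicate 1 and untreated 8 h replicates 1 and 2.

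Other mitochondrial genes moved at 8 h in untreated cells as well, where 31.7% of all genes tested were called and 15.9% were called higher. Assembly factors, which build the complexes without being part of them, had 23 of 48 tested genes called higher and 0 lower (median 0.26), led by Cox14 (0.78 ± 0.18) and Ndufaf8 (0.74 ± 0.18), which act on complexes IV and I. Electron carriers and feeders of the chain had 13 of 24 higher and 0 lower (0.28), among them Coq8a, for a ubiquinone synthesis protein, at 0.94 ± 0.21 from 25.7 to 53.3 normalized counts. The citric acid cycle and pyruvate dehydrogenase had 12 of 18 higher and 0 lower (0.21), with Suclg1 at 0.46 ± 0.08 and Pdhb at 0.45 ± 0.12. Known regulators of mitochondrial gene expression had 1 of 19 higher and 4 lower (-0.07), with Hcfc1, a coactivator, at -0.44 ± 0.13 and Pprc1, of the PGC-1 family, at -0.37 ± 0.12 among those called lower. Of these, Nrf1 was at 0.08 ± 0.06, Gabpa at -0.10 ± 0.07, Yy1 at 0.13 ± 0.06 and Tfam, which packages mitochondrial DNA, at 0.10 ± 0.07, all without a call (limma adjusted p of 0.318, 0.309, 0.0848 and 0.266).

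Members were also split by their promoter words. The 34 with at least 1 word had a median change of 0.42 at 8 h in untreated cells with 27 called, and the 31 tested members whose windows held none had 0.41 with 23 called. All 7 members with the YY1 word were called, at a median of 0.48, among them Ndufs4 and Ndufs6, whose matches are printed above. Of the 17 with an NRF1 word 12 were called, and Sdha, with its 3 words, was not. These medians are descriptions without a test.

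Of the genes used to check for other cells, 6 of 14 T cell identity genes were higher and 3 lower at 8 h in untreated cells, with Cd3d at 0.48 and Cd3g at 0.42. Among all genes tested 31.7% were called and 15.9% were called higher. Skeletal muscle markers had 3 of 19 called higher, among them Ckm, the muscle creatine kinase, at 0.68 ± 0.21. Macrophage and dendritic cell markers had 1 of 3 called, Cd14 at 0.41. Heart and slow muscle, melanocyte, B cell and fibroblast markers had 0 called among 4, 6, 3 and 5 tested genes, with 2, 0, 0 and 3 at an unadjusted p below 0.05 in limma (edgeR and DESeq2 counts were not made for these lists). In bulk RNA, fewer cells of a type and less RNA per cell cannot be told apart.

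At earlier times few members changed in untreated cells. At 0.5 h against 0 h limma called 0 members, against 0.189% of all genes, edgeR and DESeq2 called 0, and 0 had an unadjusted p below 0.05, against 3.34% of all genes (median -0.02). At 2 h limma called 1 member, against 1.83% of all genes, and the median was 0.18. That member was Ndufa7, an accessory subunit of complex I, at 626, 552, 705 and 687 normalized counts at 0 h and at 1119, 747 and 807 at 2 h, a change of 0.45 ± 0.11 (limma adjusted p = 0.0396). Replicate 1 was the highest of the 2 h libraries, and without it the change was 0.28 (limma adjusted p = 0.354). Without replicate 3 the adjusted p was 0.0524. The call was also lost with a replicate block (0.0615), without a batch term (0.214), with no filter on low values (0.0686), with only the groups compared (0.204), in batch 2 alone (0.217), without the 2 libraries with few genes at 0 (0.0614) and without 0 h replicate 1, 2 or 4 (0.0846, 0.150 and 0.0509, all limma adjusted p). Over all members replicate 1 stood 0.53 above 0 h and the other 2 h libraries 0.05 above and 0.01 below, and the median in batch 2 alone was 0.019. Without the libraries that hold muscle transcripts 2 members were called, against 2.06% of all genes. At 4 h limma called 0 members, against 1.19% of all genes, edgeR and DESeq2 called 0, and 7 had an unadjusted p below 0.05, against 11.7% of all genes, of which 6 were higher (median 0.09).

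Over the 5 untreated times together a moderated F test in limma called 43 members, against 21.6% of all genes. They were 21 of complex I, 3 of complex II, 7 of complex III, 2 of complex IV and 10 of complex V. Atp5g3 had the smallest adjusted p (0.0022), followed by Ndufv1 (0.0032), Uqcrc1 (0.0035), Sdhc (0.0058) and Atp5b (0.0070). Atp5g3 was at 4524 to 5542 normalized counts at 0 h, 4576 to 5415 at 0.5 h, 5127 to 6031 at 2 h, 4980.2 to 6124 at 4 h and 6483 to 7179 at 8 h, so that only the 8 h libraries lay wholly above those of 0 h. Leaving out untreated 8 h replicate 1 left 10 members called, against 10.4% of all genes, and leaving out replicate 2 left 6, against 7.38%. Without the 8 libraries with muscle transcripts 1 was called, against 4.76%, and without a batch term 2, against 2.48%.

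In exosome-treated cells at 8 h, 78 of 81 members had lower values than in untreated cells at 8 h, and 0 passed the test. The median log2 difference was -0.33, against 0.00 for all genes tested, of which 49.4% were lower. Other short genes moved in the same direction. As a mean of library medians against 0 h of the same batch, the 734 other tested genes under 1 kb stood at 0.38 in untreated 8 h. In exosome 8 h they stood at 0.10. The members stood at 0.46 and 0.12. limma called 0 members, against 0.452% of all genes, and edgeR called 0, while DESeq2 called 22 lower, against 6.43% of all genes. At an unadjusted p below 0.05, 55 members were lower and 0 higher in limma, against 13.1% of all genes lower at that level. For 33 members all treated libraries lay below all untreated ones, which was so for 7.79% of all genes. The comparison shares its untreated libraries with that of 8 h against 0 h, so the values of both are given side by side and not as independent results.

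Ndufv2 had the smallest p in this comparison. With exosomes it was at 889, 1141 and 1209.6 normalized counts at 8 h, against 1649, 1641 and 1323 without, and the 2 sets did not overlap. Its difference was -0.51 ± 0.13 (limma adjusted p = 0.0708). Ndufb6, for an accessory subunit of the membrane arm, was at 598, 828 and 797 with exosomes and at 1211, 1121 and 931 without, a difference of -0.56 ± 0.15 (adjusted p = 0.0772, limma). Ndufs4, an accessory subunit of the NADH-oxidizing arm, was at -0.58 ± 0.16 and Sdhd at -0.30 ± 0.08, with the same adjusted p.

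Against 0 h, the exosome-treated libraries at 8 h stood 0.01, 0.17 and 0.18 higher over the members in replicates 1, 2 and 3, while the untreated ones stood 0.68, 0.48 and 0.23 above. Uqcrq was at 1297, 1434 and 1474 with exosomes at 8 h, against 1117 to 1272 at 0 h. Ndufs6 was at 468, 587 and 593, against 361 to 539 at 0 h. The members made up 1.18 ± 0.171% of all normalized counts (SD, n = 3). That was 0.982% in the batch 1 library and 1.258% and 1.295% in those of batch 2. At 0 h the share was 0.969% in batch 1 and 1.133% to 1.191% in batch 2. In untreated cells at 8 h it was 1.436% in batch 1 and 1.547% and 1.313% in batch 2. Tested against 0 h, in a comparison added after the data had been seen, limma, edgeR and DESeq2 called 0 members in treated cells at 8 h, against 1.63% of all genes in limma, with a median of 0.10 and 5 members, 4 of them higher, at an unadjusted p below 0.05, against 14.5% of all genes.

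By complex, the median exosome difference at 8 h was -0.35 for complex I, with 25 of 36 genes lower at an unadjusted p below 0.05, and -0.31 for complex II, with 3 of 4. It was -0.37 for complex III (8 of 9), -0.35 for complex IV (6 of 14 tested) and -0.25 for complex V (11 of 16). The 7 core subunits of complex I ran from -0.51 to -0.18 and the 5 genes of the F1 head and central stalk from -0.46 to -0.09. Sdha was at -0.02 ± 0.06, with 5138, 7671 and 7412 normalized counts, against 4993, 7953 and 7619 in untreated cells. The 3 members with higher values were Ndufa10 (0.16 ± 0.09), Ndufv3 (0.10 ± 0.12) and Cox7a1 (0.28 ± 0.61), and no call was made for any of them.

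None of the exosome 8 h libraries held muscle transcripts, with Acta1 at 2.09, 1.84 and 1.79 and a skeletal muscle sum of 1074 to 1275. Without the 8 libraries that did, untreated 8 h is again replicate 3 alone with the spread taken from the other groups. The median exosome difference of the members was then -0.11, against -0.005 for all genes tested. With replicate 3 as the only untreated 8 h library it was -0.12, against -0.005 for all genes tested. Leaving out that replicate instead gave 52 members called, 51 lower and 1 higher, against 26.3% of all genes called in that fit, and a median of -0.44. Batch 2 alone gave a median of -0.19, against -0.003 for all genes tested, and the pair of batch 1 libraries differed by -0.63. Of the 81 members 74 were lower in both batches. The part of muscle transcripts, of short transcripts and of batch in the difference was not tested.

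**Figure D5:**
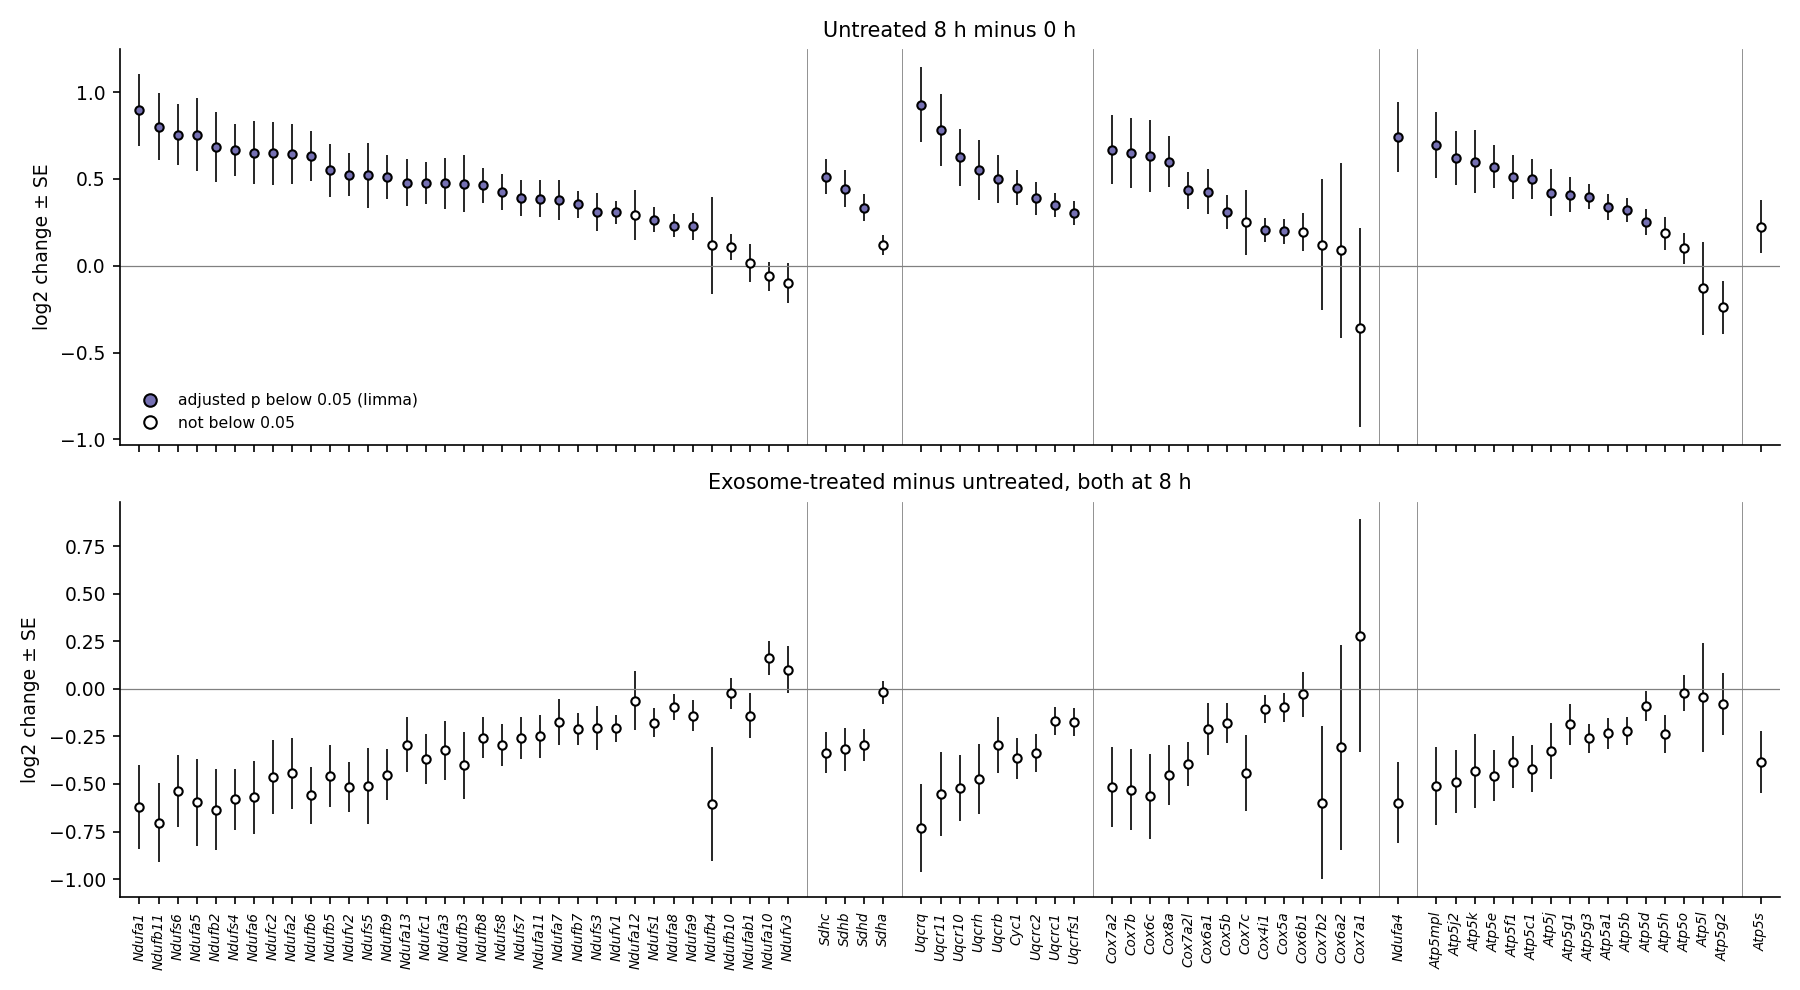
Log2 change with its SE (vertical axes) for the tested members, with 1 not shown, grouped by complex (horizontal axis), in untreated cells at 8 h minus 0 h (top) and in exosome-treated minus untreated cells at 8 h (bottom), with filled points for an adjusted p below 0.05 in limma. In the top panel the filled points all lie above 0, and in the bottom panel 0 are filled and those of Ndufa10, Ndufv3 and Cox7a1 alone lie above 0; both panels use the same untreated 8 h libraries.

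At 0.5, 2 and 4 h limma, edgeR and DESeq2 called 0 members in exosome-treated against untreated cells, against 0.243%, 0.189% and 0.155% of all genes in limma. The medians were 0.07, -0.02 and 0.07, and 2, 1 and 2 members had an unadjusted p below 0.05, against 4.31%, 1.65% and 4.35% of all genes. At 2 h the median was -0.18 without the libraries that hold muscle transcripts, against 0.01 for all genes tested. That fit keeps untreated 2 h replicates 1 and 3, and replicate 1 stood 0.53 above 0 h over the members. With all libraries, the members at an unadjusted p below 0.05 in limma at 0.5 h were Atp5d (0.21 ± 0.08) and Atp5l (-0.59 ± 0.29). At 2 h it was Atp5o (-0.21 ± 0.09), and at 4 h Ndufc1 (0.29 ± 0.13) and Cox6b1 (-0.24 ± 0.12). Averaged over the 4 times limma called 0 members, against 0.459% of all genes, edgeR and DESeq2 called 0, and 1 member, Cox6b1, had an unadjusted p below 0.05 (-0.14 ± 0.06), against 4.54% of all genes. The median of the members was -0.06. A test of whether the exosome difference varies between the 4 times called 0 members and 0% of all genes in limma and 0 members in edgeR and DESeq2, while 24 members had an unadjusted p below 0.05, against 12.6% of all genes. The smallest adjusted p there was 0.366, shared by Atp5e, Ndufc1, Ndufb11 and Ndufv2 among others. Without untreated 8 h replicate 3 this test called 16 members, against 9.08% of all genes, and without the libraries that hold muscle transcripts it called 0, with 1 at an unadjusted p below 0.05 in limma. Without those libraries the treated groups at 0.5 and 4 h keep 1 library each, and the medians were 0.023 and 0.011. A count of calls from 1 library says little and is not given for them.

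Treated cells were also set against the 0 h libraries at the earlier times, again as added comparisons that share those libraries with the untreated ones. At 0.5 and 2 h limma called 0 members, against 0.614% and 2.25% of all genes, with 1 and 9 at an unadjusted p below 0.05, against 8.07% and 15% of all genes, while DESeq2 called 0 and 1 and edgeR 0 at both. At 4 h limma called 1, against 4.25% of all genes, and 17 had an unadjusted p below 0.05, against 20.7%. The member called was Uqcrc1, at 3847, 2962 and 3708 normalized counts with exosomes against 2525 to 3152 at 0 h, and the sets overlapped. The count was 0 without exosome 4 h replicate 1 or 3, or without untreated 0 h replicate 1 or 4, 5 without exosome 4 h replicate 2, against 5.64% of all genes, and 17 in batch 2 alone, against 13.1%. Its change was 0.27 ± 0.07 (limma adjusted p = 0.0268), beside 0.17 ± 0.07 in untreated cells at 4 h. The medians of the members in these 3 comparisons were 0.06, 0.14 and 0.18.

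In other lists the exosome comparison at 8 h had 0 genes called in limma for assembly factors, feeders of the chain, the citric acid cycle, regulators, T cell identity, skeletal and heart muscle, macrophage, B cell and fibroblast genes. At an unadjusted p below 0.05, 18 of 48 assembly factors, 10 of 24 carriers and feeders and 8 of 18 citric acid cycle genes were lower, and 1, 0 and 1 were higher. Among all genes tested 13.1% were lower at that level. Of the 19 regulators 2 were lower and 4 higher, of the 14 T cell identity genes 5 and 2, and of the 19 skeletal muscle markers 9 and 0. Melanocyte markers had 4 of 6 called higher, with Tyrp1, a pigment enzyme gene, at a mean of 35.9 normalized counts, against 0 in the untreated 8 h libraries.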

How the data were processed

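RNA of 28 libraries was sequenced. Per the labels, the deposited values are normalized counts: reads per gene scaled by the authors with a factor for each library, treated here as a signal. The submitters' processing notes name the aligner STAR 2.4.2 and the build GRCm38.p2, the counter featureCounts 1.5.0, CASAVA 1.8.4, and DESeq2 under R 3.3.2. They are listed without an order, and the labels' protocols give a TruSeq RNA kit. No source used here gives strand use or the handling of multi-mapping reads. Each library's values are multiples of a fixed step, and after division by it 100% lay within 0.01 of a whole read. Floors of 3 reads cover counting error only. GENCODE M21 gave symbols and lengths, and held 30403 of the identifiers.

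A gene was tested if it reached 10 normalized counts in 3 or more libraries, which left 14828 genes with 81 members. Log2 values after adding a pseudocount of 1 were fitted in limma 3.58.1 (R 4.3.3) with its trend option, a mean for each group and a term for batch, leaving 18 residual degrees of freedom. Log2 changes are on that scale, which understates changes of low genes. Benjamini-Hochberg adjustment covered every gene tested, and a call is an adjusted p below 0.05. Errors are limma's SE for log2 changes and SD for counts. The recovered reads were also tested with edgeR 4.0.16 and DESeq2 1.42.0. The fit was tested on simulated data.

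Named genes were up to 8 called members per direction with the largest change or, with none called, the 4 with the smallest p. Core subunits, isoform pairs, the highest and lowest level of each complex and up to 2 genes of each other list were named as well. Members named outside this rule were chosen after their values were seen. The members and lists were chosen with earlier results of these data known. The comparisons of treated cells with 0 h, and the alternatives without libraries that hold muscle transcripts or few genes at 0, were chosen after seeing the data. The values of 1 member are not reported here. Promoter words were searched by exact match in the RefSeq table.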

Additional observations from a re-analysis of the deposited data

Results flagged for a closer look

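In the group with 4 libraries, untreated 0 h, 10 of 63 members had 1 library whose gap to the nearest other, divided by the range, was above Dixon's limit for 4 values. Chance alone gives such a gap in about 1 of 20 groups. The 63 were core subunits, isoform genes and the members named in any comparison, that of the batches included. The batch comparison used these same libraries, so the count cannot be set against that rate. In 7 of the 10 members the library apart was replicate 1, the only batch 1 library at 0 h, and it was the lowest. These were Sdha at 4943 normalized counts, Uqcrc2 at 2638, Cyc1 at 2296, Atp5a1 at 14709, Atp5b at 22045, Cox6a2 at 4.33 and Atp5o at 1516. Cox7a2l stood apart in replicate 4, where it was highest at 1563. Atp5l, a gene with near-identical copies, was lowest in replicate 3 at 62.9, and Ndufa4l2 was at 0.926 in replicate 3, which is 1 read, and at 0 in the others.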

How the results depend on the processing

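For untreated 8 h against 0 h, edgeR, DESeq2 and the fit with a replicate block called 64, 64 and 61 members, 37 were called without a batch term, and 0 without the 8 libraries with muscle transcripts (median 0.24) or with replicate 3 alone (0.24). The time course gave 2 without a batch term and 1 without those 8 libraries. Untreated 2 h gave 0 with no filter, no batch term, the replicate block, only the groups compared, batch 2 alone (median 0.019) or without the 2 libraries with few genes at 0, and 2 without the 8. Untreated 4 h gave 2 in batch 2 alone and 2 with only the groups compared. The exosome effect at 8 h gave 22 in DESeq2, and medians of -0.11 without the 8 libraries and -0.12 with replicate 3 alone, and that at 2 h a median of -0.18 without the 8. Treated cells against 0 h gave 2 at 0.5 h with only the groups compared and 1 at 2 h in DESeq2. At 4 h they gave 0 with no filter, no batch term, the replicate block or without the 8 libraries, 4 in DESeq2, 6 with only the groups compared and 17 in batch 2 alone, and at 8 h 5 in batch 2 alone. The causes were not tested. A reversed median was looked for only in comparisons with a called member in the main fit, and 0 were reversed there.

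Leaving out 1 library at a time gave 32 to 64 members called at untreated 8 h (medians 0.36 to 0.54), 0 to 1 at 2 h (0.03 to 0.27), 0 at 4 h (0.07 to 0.17) and 0 at 0.5 h (-0.04 to 0.00), and 6 to 62 over the time course. The exosome effect gave 0 at 0.5 h (0.04 to 0.10), 0 at 2 h (-0.12 to 0.10), 0 at 4 h (-0.04 to 0.17), 0 to 52 at 8 h (-0.44 to -0.24), 0 for the mean (-0.08 to -0.02) and 0 to 16 for the difference between times. Treated cells against 0 h gave 0 at 0.5 h (0.02 to 0.08), 0 at 2 h (0.04 to 0.19), 0 to 5 at 4 h (0.06 to 0.28) and 0 at 8 h (0.07 to 0.21), and the batches 35 to 39 (-0.11 to -0.03).

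Replicate numbers were not used to pair the libraries in the main fit. Of the 28 libraries 6 correlated best with a library of their own number, a count with no chance value beside it. With batch removed, the median correlation between libraries of the same number was -0.05, -0.01 and -0.05 for replicates 1, 2 and 3. TMM scaling moved log2 values by -0.04 to 0.03. Of the values of single genes under these alternatives 3201 kept their side of the threshold, 168 lost a call and 48 gained one. A change of direction was looked for only in genes with a call in either fit. Cox4i2 was at 0 in 22 of 28 libraries with at most 2 reads, and Ndufa4l2 at 0 in 17 with at most 3, so that their changes were not detectable at this depth.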
